A study of Homo sapiens with 20 samples.

Results

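The genes described here are the 5 subunits of the transcription factor NF-kB (NFKB1, NFKB2, REL, RELA and RELB) and 5 of the inhibitors and regulators that NF-kB itself induces (NFKBIA, NFKBID, NFKBIZ, TNFAIP3 and BCL3). They were picked by gene symbol, 10 of the 60719 genes in the deposited table, by a rule that uses no measured value, although earlier results of these data were known when they were chosen. Jurkat cells, an established human T cell leukaemia line (labelled WT), were compared with JinB8 cells (labelled CD47-), a Jurkat somatic mutant that is deficient in CD47, the cell surface receptor for thrombospondin-1 (TSP1). Poly(A) RNA was sequenced from 20 libraries, 10 per line and 1 per condition. In each line 1 library was untreated and collected at 1 h, and 3 libraries each were collected at 1, 3 and 6 h from cells plated on anti-CD3 plus anti-CD28 antibodies (activation through the T cell receptor and its costimulator), from cells given TSP1 at 1 µg/mL, and from cells given both. All cells were in the same serum-free medium, which held insulin, transferrin, selenium, albumin and hydrocortisone. No untreated library exists at 3 or 6 h, and each line is a single cell line, so an effect of CD47 and other differences between the lines cannot be told apart.

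NF-kB is a family of dimers that wait in the cytoplasm bound to inhibitor proteins. Signals from the T cell receptor, CD28 or cytokine receptors activate the IkB kinase, the inhibitor is destroyed, and the freed dimers enter the nucleus and bind kappaB sites. Among their targets are the genes of their own inhibitors, which form a negative feedback, and genes of the subunits REL, RELB and NFKB2.

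Library totals ran from 16107921 to 31737615.92 estimated counts, so that 3 counts, taken as the limit of detection, corresponded to 0.0979 to 0.156 CPM (counts scaled to the library size). RNA of CD47 itself, in which JinB8 is deficient, stood at 317 ± 42.1 CPM (SD, n = 10) in Jurkat and 147 ± 12.6 in JinB8 and was lower in JinB8 in 10 of 10 matched pairs. All 12 T cell markers averaged over 1 CPM in both lines, and the 6 myeloid and 5 epithelial markers summed to at most 1.92 CPM in any library. Some T cell markers differed widely between the lines. TRAC stood at 184.5 ± 62.7 CPM in Jurkat and 21.8 ± 5.12 in JinB8, and ZAP70 at 220 ± 53.7 and 116 ± 36.7. CD28 stood at 45.1 ± 16.95 and 230 ± 17.4, and CD2 at 43.4 ± 6.35 and 117 ± 18.9. The 6 B cell markers summed to 50.4 to 73.7 CPM in Jurkat and to 7.62 to 16.3 in JinB8, through CD79A, and the 4 endothelial markers to 37.1 to 58.0 and 94.0 to 120.3, through PECAM1. The 6 fibroblast markers summed to 1.32 to 7.41 CPM in Jurkat and 3.30 to 8.91 in JinB8, and the 5 NK cell markers to 1.25 to 9.18 and 6.21 to 12.9. The part of these marker genes in the results was not tested. The JinB8 library given anti-CD3, anti-CD28 and TSP1 at 3 h stood apart: it had the lowest total, and its log2 differences from the other libraries of its line and time had an SD of 0.59, against 0.33 to 0.457 for the remaining libraries. Member results whose call it changed are given with and without it.

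Levels between genes were compared per transcript length, as TPM computed from the isoform counts and transcript lengths. In Jurkat the most abundant members were NFKBIA at 19.8 ± 7.29 TPM (SD, n = 10), TNFAIP3 at 18.3 ± 4.76 and RELA at 17.1 ± 2.08, which did not differ beyond their spread. NFKBID at 8.43 ± 3.28, NFKB2 at 6.75 ± 2.04 and NFKB1 at 6.47 ± 0.855 TPM followed, again within their spread, then REL at 4.88 ± 2.03 and RELB at 2.36 ± 1.28. NFKBIZ at 0.380 ± 0.116 and BCL3 at 0.180 ± 0.158 TPM were the lowest. The order in JinB8 was the same but for NFKBIA and TNFAIP3, which exchanged places, and NFKB2 at 8.05 ± 2.02 TPM, which came before NFKBID at 7.49 ± 2.13.

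Promoter windows were available from RefSeq (GRCh38.p14) for 9 of the 10 members, in 16 entries. They were searched, over the 250 bases before each start, for the 10-base kappaB consensus on both strands, since feedback through NF-kB is the property for which these genes are known. The consensus was found in 10 of the 16 entries and in 7 of the 9 members, NFKB1, NFKB2, REL, NFKBIA, NFKBID, NFKBIZ and TNFAIP3, whereas 5.21% of all 35116 promoter windows held it. The following 30-base stretches show a match for each of these genes on the strand of the gene and 5′ to 3′, with the kappaB match in capitals. The stretches of REL and of start 2 of NFKB2 each hold 2 overlapping matches, and that of TNFAIP3 holds 2 separate ones.
NFKB1, chr4:102501300-102501329, plus strand: cgacgtcagtGGGAATTTCCagccaggaag
NFKB2, start 2, chr10:102394462-102394491, plus strand: aaacgtcatGGGAATTCCCCcctccggggg
NFKB2, start 3, chr10:102395674-102395703, plus strand: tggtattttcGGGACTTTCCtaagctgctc
REL, chr2:60881518-60881547, plus strand: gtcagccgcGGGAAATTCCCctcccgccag
NFKBIA, chr14:35404811-35404840, minus strand: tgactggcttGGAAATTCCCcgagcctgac
NFKBID, start 3, chr19:35899922-35899951, minus strand: gggctgagcaGGAATTCCCCttgcgcgggg
NFKBIZ, start 1, chr3:101827757-101827786, plus strand: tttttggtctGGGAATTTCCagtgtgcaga
NFKBIZ, start 2, chr3:101849265-101849294, plus strand: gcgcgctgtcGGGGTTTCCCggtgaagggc
TNFAIP3, chr6:137867188-137867217, plus strand: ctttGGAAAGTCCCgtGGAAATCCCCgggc
The first base of the match lay 49 bases before the start in NFKB1, 107 and 21 in starts 2 and 3 of NFKB2, 47 in REL, 81 in NFKBIA, 198 in start 3 of NFKBID, 223 and 239 in starts 1 and 2 of NFKBIZ, and 67 and 55 in TNFAIP3. Neither RELA entry nor the BCL3 entry held the consensus in this window. The AP-1 motif TGANTCA, searched on both strands, was in 0 of the 16 entries and in 6.57% of all windows. The NFAT core GGAAAA, which can overlap a kappaB match, was found in NFKBIA and in 1 entry of RELA, and in 21.2% of all windows. A match is a description of the letters and not a measured site.

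Between the lines, over all treatments and times, NFKBIZ was the member that stood out. NFKBIZ encodes an atypical nuclear IkB protein that works with NF-kB dimers on chromatin, and its transcripts were 4.30-fold higher in JinB8. Among the 9 members that passed the low-count filter, 2 were called at an adjusted p under 0.05 (NFKBIZ and RELA, both higher in JinB8), where 40.4% of the 16327 genes tested were called in either direction. The median log2 fold change was 0.00 over the 9 members and −0.01 over all genes tested.

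In Jurkat the lowest, median and highest NFKBIZ values were 0.700, 0.972 and 1.41 CPM, and in JinB8 they were 3.74, 4.38 and 5.11 CPM. The lines did not overlap, and NFKBIZ was higher in JinB8 in each of the 10 pairs that share a treatment and a time. The log2 fold change was 2.10 ± 0.13 (SE), a 4.30-fold difference (adjusted p = 1.08e-11 by the quasi-likelihood test of edgeR). It rested on 240 counts summed over the 10 Jurkat libraries and 1070 over the 10 JinB8 libraries. The exons of NFKBIZ overlap those of NXPE3, a gene on the same strand with 37381 counts in all, which was lower in JinB8 by a log2 fold change of −0.34 (adjusted p = 4.02e-05).

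BCL3, another nuclear IkB protein that pairs with NFKB1 and NFKB2 homodimers, had too few counts for the main test. It summed to 53 counts in Jurkat and 229 in JinB8, with 2 to 14 and 8 to 40 counts per library. In Jurkat the lowest, median and highest values were 0.0653, 0.2199 and 0.669 CPM, and in JinB8 0.352, 0.917 and 1.63 CPM. The ranges overlapped, but within each of the 10 matched pairs JinB8 was higher. In the alternative without the low-count filter, the log2 fold change of BCL3 was 2.02 ± 0.36 (SE, adjusted p = 0.000109).

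RELA, the main activating subunit, ran from 32.1 to 43.3 CPM in Jurkat with a median of 35.1, and from 38.1 to 48.9 CPM in JinB8 with a median of 40.4. The ranges overlapped, and RELA was higher in JinB8 in 8 of 10 pairs. Its log2 fold change of 0.18 ± 0.07 (SE) passed narrowly (adjusted p = 0.0498), and the call was lost when any 1 of 15 of the 20 libraries was left out (adjusted p up to 0.0914), without the low-count filter (adjusted p = 0.123) and in the activated and in the unactivated pairs alone (adjusted p = 0.155 and 0.441). REL, the subunit of lymphoid cells also called c-Rel, was lower in JinB8 in 9 of 10 pairs, with a log2 fold change of −0.44 ± 0.24 (adjusted p = 0.154). With the 10 pairs as a replicate block it was −0.42 ± 0.10 (adjusted p = 0.00198). NFKBID, a further nuclear IkB protein, likewise gave −0.45 ± 0.23 (adjusted p = 0.124) and −0.36 ± 0.13 with the block (adjusted p = 0.0278), and was lower in JinB8 in 8 of 10 pairs. The block raised the number of called members from 2 to 4, and the number of called genes from 6596 to 8957. Without the Jurkat TSP1 library at 6 h, NFKBID passed also without the block (−0.54, adjusted p = 0.0386). In the 6 activated pairs alone NFKBID gave −0.62 (adjusted p = 0.124) and in the 4 pairs without activation −0.03 (adjusted p = 0.956).

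The other 5 members gave log2 fold changes near 0 with intervals on both sides of it. NFKB1, the p105 precursor of p50, gave −0.09 (95% interval −0.29 to 0.11), and NFKB2, the p100 precursor of p52, gave −0.03 (−0.32 to 0.26). NFKBIA, the IkBα protein that holds RELA in the cytoplasm, gave 0.00 (−0.37 to 0.36). TNFAIP3, the deubiquitinase A20 that shuts off signalling to the kinase, gave 0.11 (−0.29 to 0.52). RELB, the partner of p52 in the noncanonical pathway, gave 0.19 (−0.29 to 0.66).

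**Figure D1:**
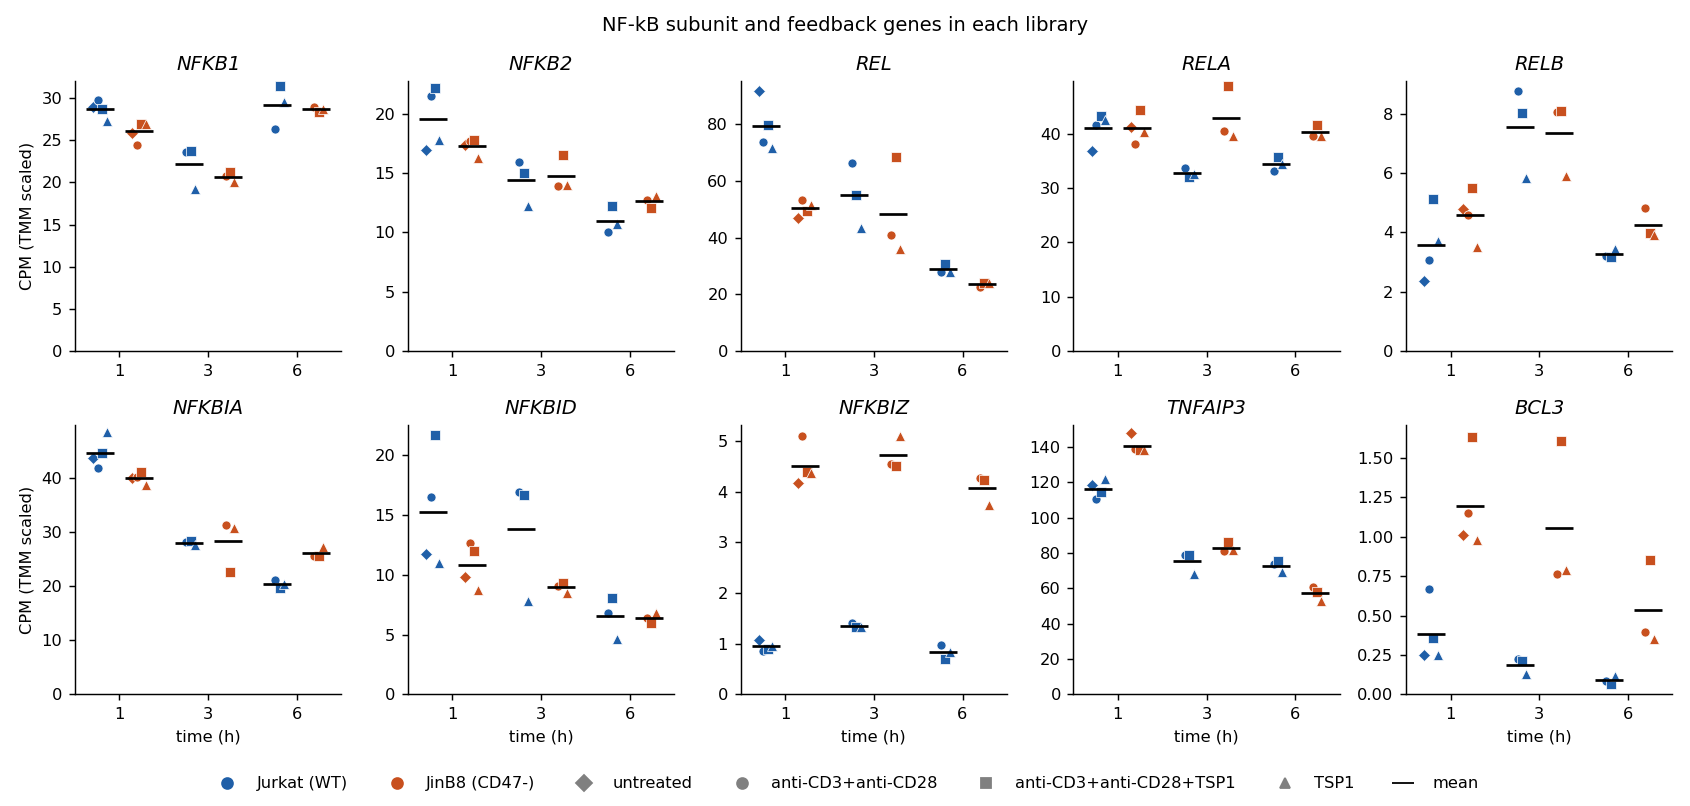
Level of each of the 10 members in every library (vertical axis, CPM after TMM scaling, each panel from 0) at 1, 3 and 6 h (horizontal axis), Jurkat in blue and JinB8 in orange, with the treatment as the marker shape and the mean as a bar. NFKBIZ is separate between the lines at every time, and REL, NFKB2, NFKBIA and TNFAIP3 are lower at 6 h than at 1 h in both lines.

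Among the 9 tested members, NFKBIZ again had the largest difference between the lines at each time point. BCL3 was not among them. At 1 h, 3 of 9 members were called, REL lower and NFKBIZ and TNFAIP3 higher in JinB8, with 48.4% of all genes called. At 3 h, 2 were called, RELA and NFKBIZ, both higher, with 46.3% of all genes called. At 6 h, 4 were called, RELA, NFKBIA and NFKBIZ higher and TNFAIP3 lower, with 46.6% of all genes called. NFKBIZ was higher in JinB8 at each time, by log2 fold changes of 2.25 ± 0.14, 1.80 ± 0.16 and 2.30 ± 0.17 (SE) at 1, 3 and 6 h (adjusted p = 8.34e-11, 1.51e-08 and 7.31e-10).

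REL was lower in JinB8 at 1 h. The 4 Jurkat libraries, in the order untreated, antibodies, antibodies with TSP1, and TSP1, held 91.8, 73.8, 79.6 and 71.6 CPM, and the 4 JinB8 libraries held 46.9, 53.3, 49.5 and 51.5 CPM. Every Jurkat library was above every JinB8 library, and the log2 fold change was −0.65 ± 0.15 (SE, adjusted p = 0.0011). At 3 h the Jurkat libraries given antibodies, antibodies with TSP1, and TSP1 held 66.3, 55.0 and 43.3 CPM, and those of JinB8 held 40.8, 68.5 and 36.01 CPM. The 68.5 CPM came from the library that stood apart. With it the difference at 3 h was −0.18 ± 0.17 (adjusted p = 0.405), and without it −0.49 (adjusted p = 0.00384). At 6 h the values were 27.8, 30.8 and 27.7 CPM in Jurkat and 22.6, 24.1 and 23.9 in JinB8, which did not overlap (log2 fold change −0.29 ± 0.18, adjusted p = 0.193).

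RELA did not differ at 1 h, when the 4 libraries ran from 36.9 to 43.3 CPM in Jurkat and from 38.1 to 44.4 in JinB8 (log2 fold change 0.00, 95% interval −0.15 to 0.14). At 3 h Jurkat held 33.7, 32.1 and 32.6 CPM in the same order of treatments and JinB8 40.5, 48.9 and 39.5 CPM. All 3 JinB8 libraries were above all 3 of Jurkat, and the log2 fold change of 0.39 ± 0.08 passed (adjusted p = 0.000697), and leaving out any 1 library kept it between 0.31 and 0.45 with an adjusted p of at most 0.00373. At 6 h Jurkat held 33.2, 35.7 and 34.4 CPM and JinB8 39.5, 41.6 and 39.7 CPM, again without overlap (0.23 ± 0.08, adjusted p = 0.0294). This last call was lost without the Jurkat antibody library at 6 h, the Jurkat TSP1 library at 6 h or the JinB8 antibody with TSP1 library at 6 h (adjusted p up to 0.0934). The antisense gene RELA-DT, whose exons overlap those of RELA, had 1035 counts in all against 18473 for RELA.

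NFKBIA and TNFAIP3, the 2 inhibitors that act upstream of the subunits, differed in opposite directions at 6 h. NFKBIA at 6 h held 21.1, 19.7 and 20.3 CPM in Jurkat and 25.5, 25.5 and 27.2 in JinB8, without overlap (log2 fold change 0.36 ± 0.09, SE, adjusted p = 0.00364). At 1 h it held 43.8, 41.9, 44.7 and 48.5 CPM in Jurkat and 40.0, 40.2, 41.1 and 38.7 in JinB8, where the difference was −0.16 ± 0.08 (adjusted p = 0.096). At 3 h NFKBIA was at 28.1, 28.3 and 27.6 CPM in Jurkat and at 31.3, 22.7 and 30.9 in JinB8. The 22.7 CPM again came from the JinB8 library that stood apart. The difference at 3 h was 0.02 ± 0.09 with it (adjusted p = 0.896) and 0.18 without it (adjusted p = 0.0378), and without it the difference at 1 h passed too (adjusted p = 0.0233).

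TNFAIP3 at 1 h held 118.5, 110.7, 114.3 and 121.7 CPM in Jurkat and 147.9, 138.9, 138.0 and 138.3 in JinB8. No library of Jurkat reached those of JinB8, and the difference was 0.28 ± 0.06 (SE, adjusted p = 0.000606). At 3 h it held 78.7, 78.9 and 68.2 CPM in Jurkat and 81.0, 86.2 and 81.5 in JinB8 (0.14 ± 0.07, adjusted p = 0.104), which passed by limma voom (0.17, adjusted p = 0.0471). At 6 h the order was the reverse, with 73.9, 75.5 and 69.4 CPM in Jurkat and 61.0, 57.8 and 53.1 in JinB8, again without overlap (−0.35 ± 0.07, adjusted p = 0.000301). The antisense gene WAKMAR2, which overlaps exons of TNFAIP3, had 5632 counts in all against 45224 for TNFAIP3 and was lower in JinB8 over all times (log2 fold change −1.23, adjusted p = 3.72e-07). The counting strand is not given in the sources used here, so reads of such pairs may not have been told apart.

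NFKBID gave −0.50 ± 0.23 at 1 h (adjusted p = 0.0779), −0.62 ± 0.27 at 3 h (adjusted p = 0.0628) and −0.03 ± 0.28 at 6 h. It passed at 1 h without the Jurkat untreated, the Jurkat TSP1 1 h or the Jurkat TSP1 3 h library (adjusted p = 0.0472, 0.0331 and 0.0332). It passed at 3 h without the Jurkat antibody with TSP1 library at 1 h (adjusted p = 0.049) or the Jurkat TSP1 library at 3 h (−0.91, adjusted p = 0.00485), and by DESeq2 (adjusted p = 0.045). RELB at 1 h gave 0.36 ± 0.20 (adjusted p = 0.146), and 0.58 without the Jurkat antibody with TSP1 library at 1 h (adjusted p = 0.0199). NFKB1 and NFKB2 were not called at any time.

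**Figure D2:**
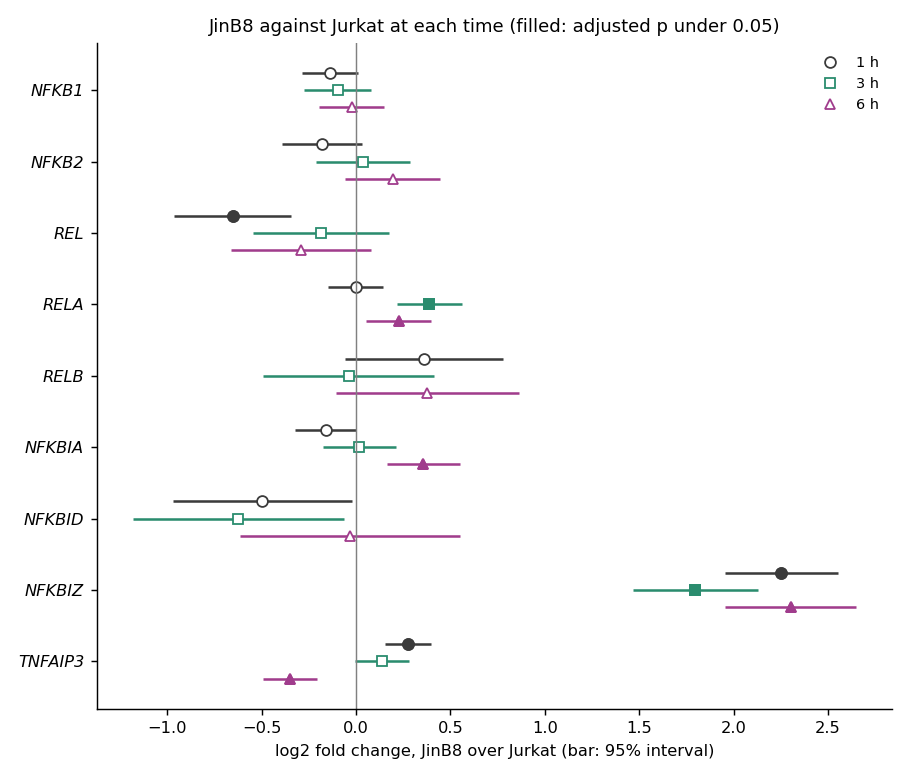
Log2 fold change of JinB8 over Jurkat (horizontal axis) for the 9 tested members at 1, 3 and 6 h, with 95% intervals as bars and filled symbols at an adjusted p under 0.05. NFKBIZ lies near 2 at each time, NFKBIA moves from −0.16 at 1 h to 0.36 at 6 h, and TNFAIP3 from 0.28 to −0.35.

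Over time, REL, NFKB2, NFKBIA, NFKBID and TNFAIP3 were lower at 6 h than at 1 h in both lines, while RELB was higher at 3 h in both and not called at 6 h. In Jurkat at 3 h against 1 h, 8 of 9 members were called (2 higher and 6 lower), with 36.8% of all genes called. In Jurkat at 6 h, 6 of 9 were lower and none higher, with 53.4% of all genes called. In JinB8 at 3 h, 4 of 9 were called (1 higher and 3 lower), with 39.3% of all genes called. In JinB8 at 6 h, 5 of 9 were lower and none higher, with 53.9% of all genes called. At 6 h the median log2 fold change over the members was −0.67 in Jurkat and −0.46 in JinB8, against −0.01 over all genes in either line. The libraries of a time point differ in treatment, and the time in culture and the time under treatment cannot be told apart.

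Among the subunits, REL fell furthest. At 6 h it was at 0.364 of its 1 h level in Jurkat (log2 fold change −1.46 ± 0.17, SE, adjusted p = 4.41e-07) and at 0.468 in JinB8 (−1.10 ± 0.17, adjusted p = 1.53e-05). At 3 h REL had fallen in Jurkat (−0.53 ± 0.16, adjusted p = 0.0143), a call lost without the Jurkat TSP1 library at 3 h (−0.38, adjusted p = 0.0974) or without both untreated libraries (adjusted p = 0.0502). In JinB8 its change at 3 h was −0.06 ± 0.16 (adjusted p = 0.797), and −0.38 without the library that stood apart (adjusted p = 0.0194).

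NFKB2 went from 17.0, 21.5, 22.1 and 17.8 CPM at 1 h to 10.02, 12.2 and 10.7 at 6 h in Jurkat, with no overlap (−0.83 ± 0.11, adjusted p = 3.55e-06). In JinB8 it went from 17.3, 17.7, 17.8 and 16.3 CPM to 12.8, 12.01 and 13.03, also with no overlap (−0.46 ± 0.11, adjusted p = 0.00176). At 3 h NFKB2 was lower in Jurkat (−0.45 ± 0.11, adjusted p = 0.00351) and gave −0.23 ± 0.11 in JinB8 (adjusted p = 0.108). NFKB1 fell at 3 h in both lines, by 0.37 in Jurkat (adjusted p = 0.000937) and by 0.33 in JinB8 (adjusted p = 0.00258) on the log2 scale. At 6 h NFKB1 was back near its 1 h level, with means of 28.7 CPM at 1 h, 22.2 at 3 h and 29.2 at 6 h in Jurkat and 26.1, 20.7 and 28.7 in JinB8.

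RELB had the opposite course. In Jurkat it held 2.36, 3.06, 5.13 and 3.70 CPM at 1 h, 8.79, 8.02 and 5.84 at 3 h and 3.21, 3.17 and 3.44 at 6 h, so that every 3 h library was above every other one. Its rise at 3 h was 2.11-fold (log2 fold change 1.08 ± 0.21, adjusted p = 0.000441). In JinB8 it held 4.78, 4.58, 5.51 and 3.51 CPM at 1 h, 8.08, 8.09 and 5.90 at 3 h and 4.84, 3.99 and 3.92 at 6 h, a 1.60-fold rise at 3 h (0.68 ± 0.21, adjusted p = 0.0136) that was lost without the JinB8 antibody library at 3 h (adjusted p = 0.0538). In both lines the TSP1 library was the lowest of the 3 at 3 h. RELA fell in Jurkat at 3 h by 0.33 (adjusted p = 0.00247) and at 6 h by 0.26 (adjusted p = 0.00857) on the log2 scale, and in JinB8 gave 0.07 ± 0.08 and −0.03 ± 0.08, neither of which was called.

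Among the inhibitors, NFKBIA and TNFAIP3 were lower at both later times in both lines. NFKBIA at 6 h was at 0.456 of its 1 h level in Jurkat (log2 fold change −1.13 ± 0.09, adjusted p = 2.09e-09) and at 0.652 in JinB8 (−0.62 ± 0.09, adjusted p = 5.08e-06). TNFAIP3 at 6 h was at 0.627 in Jurkat (−0.67 ± 0.06, adjusted p = 3.6e-08) and at 0.407 in JinB8 (−1.30 ± 0.07, adjusted p = 6.04e-12). NFKBID was lower at 6 h, by 1.22 on the log2 scale in Jurkat (adjusted p = 0.000492) and by 0.75 in JinB8 (adjusted p = 0.0192). The JinB8 call was lost without its antibody library at 1 h, its antibody library at 6 h or its antibody with TSP1 library at 6 h (adjusted p up to 0.0653). NFKBIZ in Jurkat was 1.44-fold higher at 3 h (adjusted p = 0.0453), but not by DESeq2 (adjusted p = 0.0846), limma voom (0.123) or edgeR without the low-count filter (0.289), nor when any 1 of 6 Jurkat libraries (antibodies, antibodies with TSP1, and TSP1, at 1 and 3 h) was left out (adjusted p up to 0.109). BCL3 was outside the main test, and its mean was 0.382, 0.190 and 0.0910 CPM at 1, 3 and 6 h in Jurkat, the last below the limit of detection. In JinB8 the BCL3 mean was 1.19 CPM at 1 h and 0.534 at 6 h, and the 3 libraries at 3 h held 0.765, 1.61 and 0.789 CPM, the 1.61 in the library that stood apart.

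**Figure D3:**
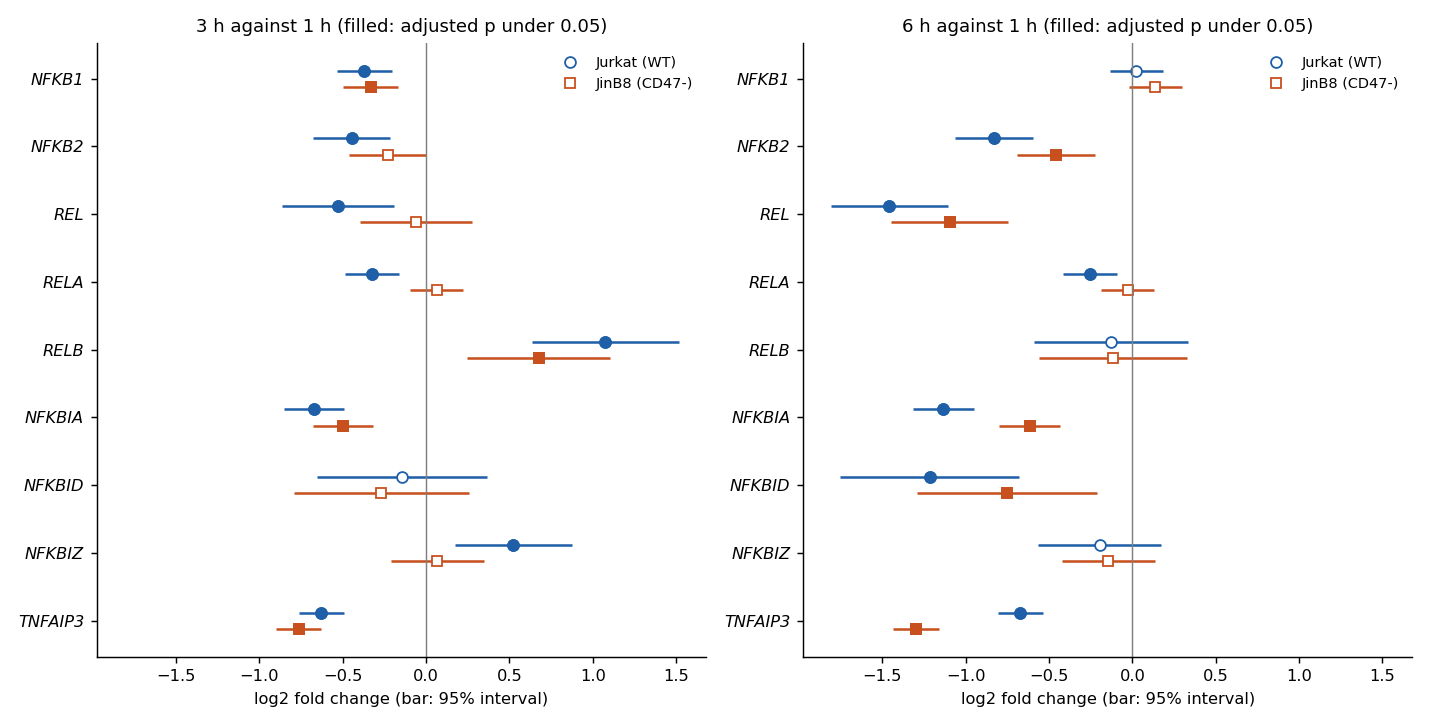
Log2 fold change of 3 h (left) and 6 h (right) against 1 h (horizontal axis) for the 9 tested members, Jurkat as blue circles and JinB8 as orange squares, with 95% intervals as bars and filled symbols at an adjusted p under 0.05. RELB lies to the right of 0 at 3 h in both lines, and REL, NFKB2, NFKBIA, NFKBID and TNFAIP3 lie to the left at 6 h.

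The time course itself differed between the lines for 2 of the feedback inhibitors, NFKBIA and TNFAIP3. From 1 h to 6 h, NFKBIA fell less and TNFAIP3 fell more in JinB8 than in Jurkat. These were 2 of 9 members called for the difference between the lines at 6 h against 1 h, with 16.4% of all genes called. The difference for NFKBIA was 0.52 ± 0.12 (SE, log2 scale, JinB8 minus Jurkat, adjusted p = 0.00599), and it stayed between 0.49 and 0.58 with any 1 library left out (adjusted p at most 0.0211). For TNFAIP3 it was −0.62 ± 0.09 (adjusted p = 8.09e-05), between −0.67 and −0.54 with any 1 library left out (adjusted p at most 0.000969). The difference for NFKB2 was 0.37 ± 0.16 (adjusted p = 0.113), for RELA 0.23 ± 0.11 (adjusted p = 0.164) and for REL 0.36 ± 0.23 (adjusted p = 0.322). Of the other inhibitors, NFKBID gave 0.47 ± 0.36 (adjusted p = 0.429) and NFKBIZ 0.05 ± 0.22 (adjusted p = 0.91), and BCL3 was not tested.

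For 3 h against 1 h, 1 of 9 members was called for the difference between the lines, with 4.45% of all genes called. It was RELA, which fell in Jurkat and not in JinB8, with a difference of 0.39 ± 0.11 (adjusted p = 0.0445). With the pairs as a replicate block this became 0.38 ± 0.11 (adjusted p = 0.102), and the call was also lost when any 1 of 14 of the 20 libraries was left out. Without the library that stood apart the RELA difference was 0.30 (adjusted p = 0.0888), while that of NFKBIA rose from 0.18 ± 0.12 (adjusted p = 0.4) to 0.32 (adjusted p = 0.0359).

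Activation by anti-CD3 and anti-CD28 was measured within each line after taking out time and TSP1, from 6 libraries with and 4 without the antibodies. In Jurkat, NFKBID was the 1 member of 9 that was called, 1.81-fold higher with the antibodies, with 0.282% of all genes called. In JinB8 no member was called and 0% of all genes were called. The edgeR test gave 46 genes in Jurkat and 0 in JinB8, where 491 genes and 0 members had an unadjusted p under 0.05. This JinB8 number depended on the model: it was 2636 with 1 coefficient per treatment and 2648 without the untreated libraries, with 0 genes called in either. DESeq2 and limma voom also called 0 genes in JinB8.

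NFKBID was higher in both antibody libraries than in any library without them at each time in Jurkat. At 1 h it held 11.8 CPM untreated and 10.97 with TSP1, against 16.5 with the antibodies and 21.7 with antibodies and TSP1. At 3 h it held 7.79 CPM with TSP1, against 16.9 and 16.7, and at 6 h 4.68 CPM, against 6.85 and 8.09. With edgeR the log2 fold change came to 0.86 ± 0.12 (adjusted p = 0.00445). The call was lost without the Jurkat antibody with TSP1 library at 1 h (0.79, adjusted p = 0.0584) or the Jurkat TSP1 library at 3 h (0.74, adjusted p = 0.051), and otherwise held in the alternatives that were run.

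In JinB8 NFKBID held 9.85 CPM untreated and 8.77 with TSP1 at 1 h, against 12.7 and 11.97 with the antibodies. At 3 h it held 8.47 CPM without the antibodies and 9.10 and 9.34 with them, and at 6 h 6.82 CPM without and 6.42 and 6.01 with them. The antibody libraries were thus higher at 1 and 3 h and lower at 6 h, and the log2 fold change was 0.18 ± 0.12 (95% interval −0.07 to 0.43, adjusted p = 0.888). The difference between the lines was −0.68 ± 0.17 (JinB8 minus Jurkat, 95% interval −1.03 to −0.33), which did not pass over all genes (adjusted p = 0.641 by edgeR, 0.204 by DESeq2 and 0.779 by limma voom). Without the low-count filter it passed (−0.69, adjusted p = 0.0162). No member was called for this difference in the main test, where 1 gene was called, 0.00612% of all tested, and 1 member had an unadjusted p under 0.05.

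No other member was called with the antibodies. In Jurkat, NFKB2 gave 0.28 ± 0.08 (95% interval 0.10 to 0.46, adjusted p = 0.319) and RELB 0.39 ± 0.17 (0.03 to 0.75, adjusted p = 0.572). The remaining 6 tested members lay between −0.14 (NFKBIZ) and 0.10 (NFKB1) in Jurkat, and the 9 members lay between −0.08 (NFKBIA) and 0.28 (RELB) in JinB8. The intervals differed in width: for TNFAIP3 they ran from −0.08 to 0.18 in Jurkat and from −0.11 to 0.15 in JinB8, and for NFKBIA from −0.20 to 0.15 and from −0.25 to 0.09. In JinB8 those of RELB and REL reached further, from −0.07 to 0.62 and from −0.06 to 0.54. The JinB8 value of REL was 0.24, and 0.07 without the library that stood apart.

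**Figure D4:**
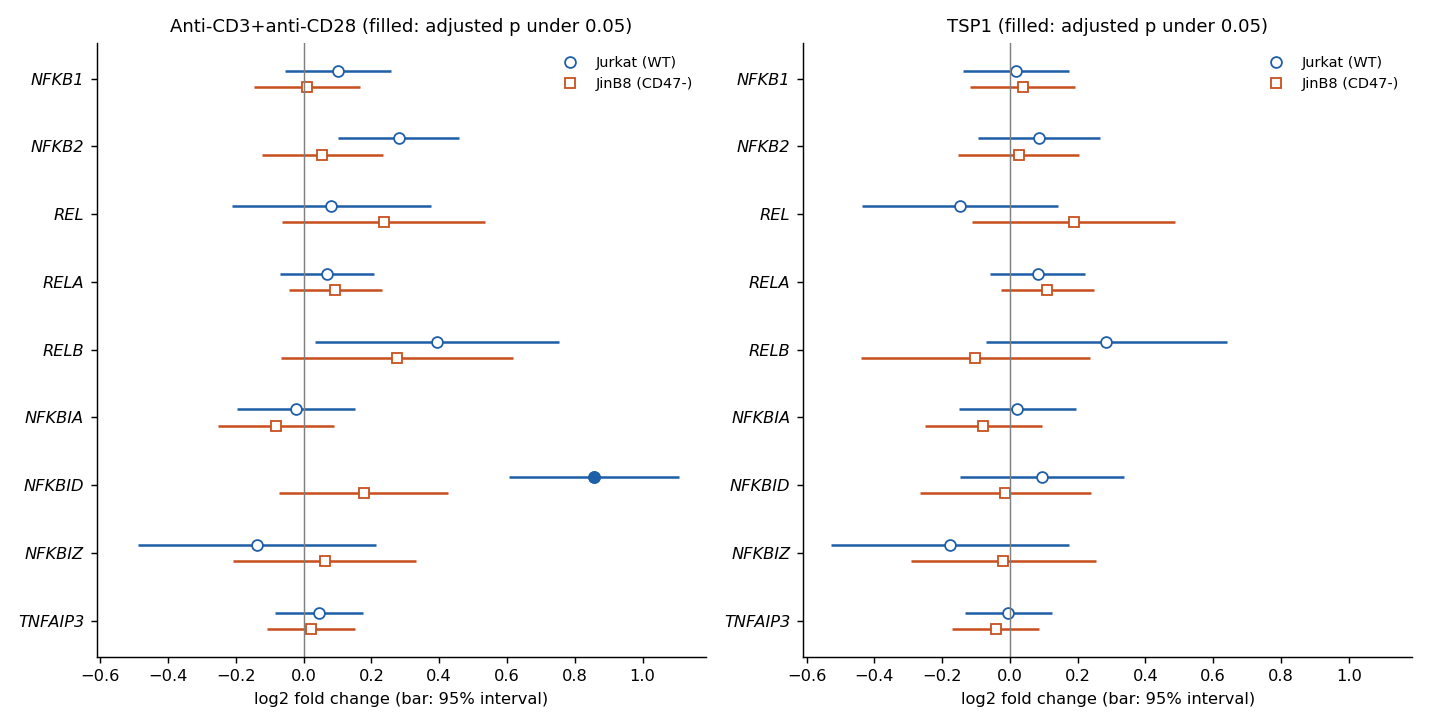
Log2 fold change with anti-CD3 plus anti-CD28 (left) and with TSP1 (right) for the 9 tested members (horizontal axis, same scale in both panels), Jurkat as blue circles and JinB8 as orange squares, with 95% intervals as bars and filled symbols at an adjusted p under 0.05. NFKBID in Jurkat, at 0.86, is the 1 filled symbol.

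TSP1 gave no call in either line. At 3 and 6 h the only library without TSP1 in each line had the antibodies. TSP1 alone could therefore be set against untreated cells at 1 h only. The model takes the same TSP1 effect with and without the antibodies, and an effect limited to activated cells was not tested. With 6 libraries with and 4 without TSP1 per line, 0 of 9 members and 0% of all genes were called in Jurkat, in JinB8 and for the difference between them. At an unadjusted p under 0.05 the edgeR test held 0 members in each and 661, 530 and 1070 genes. With 1 coefficient per treatment these were 366 genes in Jurkat and 1771 in JinB8, with 0 called in either. DESeq2 called 1, 0 and 1 genes and limma voom 0 in each. Log2 fold changes of the members ran from −0.18 (NFKBIZ) to 0.28 (RELB) in Jurkat and from −0.10 (RELB) to 0.19 (REL) in JinB8. Without the library that stood apart the REL value in JinB8 was 0.01. The intervals were narrowest for TNFAIP3, −0.13 to 0.12 in Jurkat and −0.17 to 0.09 in JinB8. Those of RELB were wide, −0.07 to 0.64 and −0.44 to 0.24, as was that of NFKBIZ in Jurkat, −0.53 to 0.17. In the pair of JinB8 antibody libraries at 3 h, REL was at 40.8 CPM without TSP1 and 68.5 with it, in the library that stood apart, and the same pair in Jurkat was at 66.3 and 55.0 CPM.

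At the level of transcripts, 114 isoforms of the members are in the deposited table, 22 of them held at least 10% of their gene's counts over all libraries, and 19 of these were tested. The isoform levels of 2 were called between the lines, 1 of NFKBIZ and 1 of NFKB2, with 15.1% of all 55450 isoforms tested called. The NFKBIZ isoform passed the low-count filter through the JinB8 libraries alone and so had to differ. The count of 2 therefore cannot be set against this share. The leading REL transcript passed too with the pairs as a replicate block (log2 fold change −0.45, adjusted p = 0.0211, against 0.195 without it), and the leading BCL3 transcript without the low-count filter (2.24, adjusted p = 0.0223). For the share of the gene's transcripts (edgeR diffSpliceDGE), 0 of 18 member isoforms were called and 3 had an unadjusted p under 0.05, with 0.647% of all isoforms called. Positions below are those of GENCODE 44 on GRCh38.

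NFKBIZ-202, which starts at chr3:101849514 and has 12 exons, held 26 counts in all Jurkat libraries together and 0 in 8 of the 10, against 562 counts in JinB8, where no library was at 0. Its level was 0.116 ± 0.245 CPM (SD, n = 10) in Jurkat and 2.38 ± 0.913 in JinB8 (log2 fold change 4.30 ± 0.81, SE, adjusted p = 0.000663). NFKBIZ-202 passed the low-count filter through the JinB8 libraries alone, so that a transcript entering the test in this way had to differ. With so few Jurkat counts the size is uncertain: the NFKBIZ-202 value was 5.13 and 5.10 without the Jurkat antibody library at 3 h or at 6 h, and 5.84 with the replicate block. NFKBIZ-203, which starts at chr3:101827993 and has 13 exons, held 137 and 297 counts, with levels of 0.593 ± 0.268 and 1.25 ± 1.01 CPM (1.06 ± 0.69, adjusted p = 0.353). The mean share of NFKBIZ-202 was 9.86% ± 21.1 in Jurkat and 53.4% ± 21.9 in JinB8, and that of NFKBIZ-203 56.4% ± 23.2 and 26.9% ± 21.0. The test of the NFKBIZ-202 share gave an adjusted p of 0.49, and of 0.0213 without the low-count filter. In the JinB8 antibody with TSP1 libraries at 3 and 6 h NFKBIZ-203 was estimated at 0, and in the untreated one at 0.03 counts, and these 3 libraries had the highest NFKBIZ-202 levels of the line. Reads that both transcripts could have given were divided between them by estimation. NFKBIZ-202 starts at RefSeq start 2 of the promoter windows and NFKBIZ-203 lies 3 bases from start 1, and both windows hold a kappaB match.

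**Figure D5:**
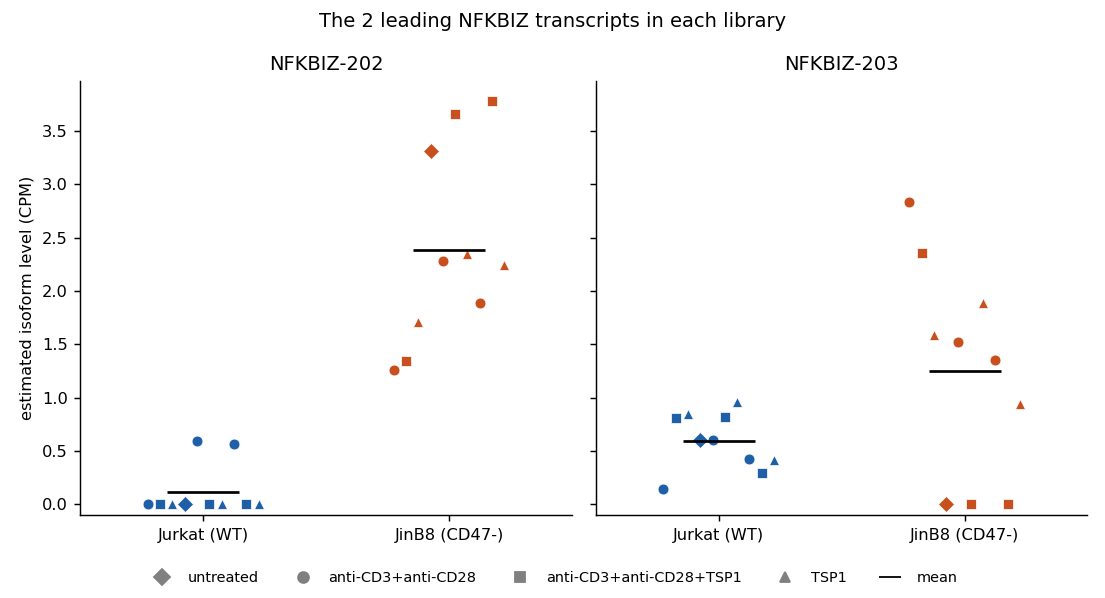
Estimated level (vertical axis, CPM) of the NFKBIZ transcripts NFKBIZ-202 (left) and NFKBIZ-203 (right) in each of the 10 libraries per line, with the treatment as the marker shape and the mean as a bar. NFKBIZ-202 is at 0 in 8 of 10 Jurkat libraries and above 1 CPM in every JinB8 library, while NFKBIZ-203 overlaps between the lines.

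NFKB2-204, which starts at chr10:102394110, upstream of the other main NFKB2 transcripts and at RefSeq start 1, whose window held no kappaB match, had a level of 3.31 ± 1.06 CPM in Jurkat and 1.499 ± 1.00 in JinB8 (log2 fold change −1.14 ± 0.34, SE, adjusted p = 0.0255), although the gene as a whole gave −0.03. The NFKB2-204 share was 23.4% ± 9.77 in Jurkat and 10.3% ± 7.31 in JinB8 (adjusted p of the share = 0.826). NFKBID-208, annotated as a target of nonsense-mediated decay, was the largest NFKBID transcript in both lines, at 47.7% ± 6.47 of the counts in Jurkat and 48.5% ± 7.54 in JinB8, and the coding NFKBID-210 followed at 18.1% ± 10.0 and 22.7% ± 5.66. A transcript of the same class also led NFKB1, at 46.1% ± 9.68 and 40.8% ± 6.73. In 6 genes a single coding transcript led. It held 84.6% ± 4.91 and 85.6% ± 4.55 of the counts of TNFAIP3, 86.6% ± 2.91 and 80.4% ± 5.40 of NFKBIA, 75.7% ± 11.7 and 72.5% ± 11.3 of REL, and 56.4% ± 10.6 and 57.3% ± 11.5 of RELA. For RELB it held 61.7% ± 26.2 and 82.7% ± 9.46, and for BCL3 51.5% ± 35.9 and 61.0% ± 17.8, from 28 and 145 counts.

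The rest of the pathway was read from 63 listed genes, of which 52 were tested. Between the lines 16 were higher and 9 lower in JinB8, 48.1% of those tested, next to 40.4% of all genes. Of the 17 tested inducible targets 6 were higher and 3 lower. TNF, the cytokine that is both a target and an activator of NF-kB, was 9.86-fold higher in JinB8, at 17.9 ± 5.59 against 1.83 ± 1.00 CPM (SD, n = 10, adjusted p = 3.25e-09). LTA, lymphotoxin alpha, was 2.41-fold higher (adjusted p = 1.21e-05), and the chemokine CXCL8 was higher too (adjusted p = 1.08e-06), from 0.0537 ± 0.0706 CPM in Jurkat, under the limit of detection, to 0.687 ± 0.254 in JinB8, through which alone it passed the low-count filter. Of the 11 genes listed for the IkB kinase and its upstream kinases, which include the adaptors TAB1, TAB2 and TAB3, 3 were higher and 4 lower. MAP3K8, a kinase held by the p105 protein of NFKB1, was 7.21-fold higher (adjusted p = 1.45e-09), at 19.6 ± 4.89 against 2.72 ± 1.20 CPM. The adaptor TAB3 gave −0.62 ± 0.09 (adjusted p = 1.2e-05) and the kinase TBK1 0.33 ± 0.09 (adjusted p = 0.00383). Of the 11 genes between the T cell receptor and the kinase 3 were higher and 1 lower, with PRKCQ, the protein kinase C theta of T cells, at 0.69 ± 0.12 (adjusted p = 4.94e-05) and CASP8 at −0.70 ± 0.07 (adjusted p = 1.42e-08). Of 11 other inhibitors 3 were higher and 1 lower, with TNIP1, a partner of A20, at 0.56 ± 0.12 (adjusted p = 0.000894), N4BP1 at 0.23 ± 0.07 (adjusted p = 0.0114) and RNF11 at −0.31 ± 0.06 (adjusted p = 0.000472). Of 7 noncanonical genes 1 was higher, the receptor TNFRSF13C (2.47-fold, adjusted p = 6.51e-05), and 1 lower, CHUK, a catalytic subunit of the IkB kinase (−0.23 ± 0.06, adjusted p = 0.00407).

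With activation in Jurkat, 4 of the 17 tested targets were higher beside NFKBID and none lower, next to 0.282% of all genes called, and no gene of the other lists was called. They were the activation marker CD69 (4.02-fold, adjusted p = 0.00144), IER3 (2.41-fold, adjusted p = 0.0103), TNF (2.01-fold, adjusted p = 0.0108) and TRAF1 (1.96-fold, adjusted p = 0.0283). In JinB8 none of the 52 genes was called for activation by edgeR. For the difference between the lines at 6 h against 1 h, 5 of the 52 were higher and 7 lower, next to 16.4% of all genes, with 4 of the 17 targets higher, among them CD83 (0.78 ± 0.11, adjusted p = 5.74e-05), SOD2 (0.34 ± 0.09, adjusted p = 0.0176) and PLAU (1.51 ± 0.46, adjusted p = 0.0301). The fifth higher gene was ZC3H12A, an inhibitor (0.91 ± 0.21, adjusted p = 0.00518). Of the 7 lower genes 4 belonged to the list of the IkB kinase and its upstream kinases, among them MAP3K7 (−0.37 ± 0.08, adjusted p = 0.00453), IKBKB (−0.40 ± 0.09, adjusted p = 0.00465) and TBK1 (−0.51 ± 0.12, adjusted p = 0.00592). The others were PRKCQ (−0.75 ± 0.10, adjusted p = 2.55e-05), CASP8 (−0.34 ± 0.10, adjusted p = 0.029) and ITCH (−0.27 ± 0.09, adjusted p = 0.0447). At 6 h against 1 h in Jurkat 12 of the 52 were higher and 23 lower, 67.3% next to 53.4% of all genes, and in JinB8 8 were higher and 24 lower, 61.5% next to 53.9%.

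The genes most like each member were found by Pearson's r of log2 CPM over the 20 libraries, with the line means subtracted. For NFKBID they were NR4A1 (r = 0.946), GEM (0.941) and FOS (0.937), all known as immediate early genes. For NFKB2 they were NPC1 (0.961), PLEKHO2 (0.96) and EGR2 (0.957), for REL GJC1 (0.982), KLF7 (0.973) and CLMN (0.97), and for RELB DDR1 (0.941), LASP1 (0.934) and IL21R (0.913). For TNFAIP3 they were CHD3 (0.982), UBALD2 (0.978) and YPEL1 (0.976), and for NFKBIA KLHL15 (0.981), POLR1D (0.979) and CAMLG (0.979). NFKB1, RELA and NFKBIZ had weaker leading values, of 0.895 (ZNF692), 0.899 (KIF21B) and 0.849 (KMT5A). Among the members themselves, NFKB2 was closest to REL (r = 0.884), NFKBID (0.877) and NFKBIA (0.84), whereas NFKB1 ran against NFKBIZ (−0.764) and RELB (−0.721). The 20 points share 3 time points and 4 treatments, so that these values describe a common course over times and treatments, which were not separated.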

How the data were processed

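The authors deposited RSEM expected counts per gene and per isoform. Per the submitters' processing notes, reads were trimmed with Cutadapt 1.18, aligned with STAR 2.4.2a and quantified with RSEM 1.3.3 on GRCh38; the annotation was GENCODE 36. Each file also holds 2 columns of another cell line, which map to no sample and were not used. The expected counts were rounded, genes were filtered (filterByExpr, minimum count 10, total 15), scaled by TMM and tested with edgeR 4.0.16 quasi-likelihood models, with Benjamini-Hochberg adjustment over all genes tested and a threshold of 0.05: line alone, line by time, and time, activation and TSP1 terms within each line. SE is the log2 fold change over the square root of F. For NFKBIZ, whose Jurkat counts were low, the p of the quasi-likelihood test could be larger than this SE implies. Its line difference at 3 h against 1 h had an interval of −0.90 to −0.006 with an unadjusted p of 0.0636. The SEs, intervals and figure bars of NFKBIZ can therefore be too narrow. DESeq2 1.42.0 and limma 3.58.1 voom, other filters and scalings, a block of matched pairs and each library left out were alternatives.

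CPM are counts over TMM-scaled library sizes. TPM used GENCODE 44 lengths, which matched 229321 of 232184 isoforms.

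The members and gene lists were chosen with earlier results of these data known. All 10 members, up to 3 called genes with the smallest p per pathway list (for the line, activation and 6 h line-by-time comparisons), and the 3 genes nearest each member were to be named. TRAF1 was named outside that rule after its values were seen. A gene that the rule would name is not reported here. Nothing says that libraries came from separate cultures, so p-values measure the spread between these libraries, and fewer cells and less RNA per cell cannot be told apart in bulk RNA.

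Pairs were matched for treatment and time by the labels. With line means subtracted every pair correlated over genes (r from 0.115 to 0.452), but with line and time means subtracted r ran from −0.257 to 0.084.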

Additional observations from a re-analysis of the deposited data

Results flagged for a closer look

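The BCL3 level in the Jurkat library given anti-CD3 and anti-CD28 at 1 h, 0.669 CPM, lay far from the other 9 Jurkat libraries, with a gap of 0.517 of the group's whole range. The TNFAIP3 level in the untreated JinB8 library, 147.9 CPM, lay far from the other 3 JinB8 libraries at 1 h, with a gap of 0.91 of the range. These were 2 of 40 groups screened in this way, and chance flags about 1 in 20.

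The change over time differed between the lines for 3 members by the test of the difference itself (edgeR, JinB8 minus Jurkat, log2 scale). For RELA at 3 h against 1 h it was 0.39 (adjusted p = 0.0445, lost with the replicate block, by limma voom, without the low-count filter and in 14 of 20 fits with 1 library left out), for NFKBIA at 6 h against 1 h 0.52 (adjusted p = 0.00599) and for TNFAIP3 at 6 h against 1 h −0.62 (adjusted p = 8.09e-05).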

How the results depend on the processing

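No called member changed direction in any alternative. Over all treatments 2 members were called between the lines, and 1 when at least 1 CPM was required in every library, which removed NFKBIZ, and 1 in the 4 pairs without activation; leaving out single libraries gave 1 to 3. These ranges and the counts without the filter include BCL3, which passed the filter in some fits with a library left out. In those fits it passed mainly through the JinB8 libraries, with 8 to 40 counts each against 2 to 14 in Jurkat. A call of BCL3 between the lines in those fits was thus largely set by the filter. With the matched pairs as a replicate block 4 were called. At 1 h 3 were called, 5 without the low-count filter and 3 to 5 with single libraries left out. At 3 h 2 were called, 4 without the filter and 2 to 4 with single libraries left out. For the difference between the lines at 3 h against 1 h, 1 was called, 0 by limma voom, 0 with the replicate block and 0 to 1 with single libraries left out. For activation in Jurkat 1 was called and 0 to 1 with single libraries left out; for its difference between the lines 0, and 1 without the filter. Of the member isoforms 0 changed in share, and 1 without the filter. The replicate block changed no other call of a member gene. The causes were not tested.

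Counts over all genes moved more. Between the lines 6596 genes were called, 4067 in the 6 activated pairs and 2706 in the 4 others, with fewer libraries. For the difference at 3 h 727 were called, 1155 by DESeq2, 1503 without the filter, 322 with the block and 318 to 1622 with single libraries left out. Activation in Jurkat gave 46, 122 by DESeq2, 315 without the filter, 15 with 1 coefficient per treatment or without the untreated libraries, and 10 to 101 with single libraries left out. Without the filter, activation gave 120 genes in JinB8 and 294 for the difference (13 by DESeq2), and TSP1 gave 156, 168 and 409.

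NFKBIZ and BCL3 are limited by depth, with 18 to 31 and 2 to 14 counts per Jurkat library.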
